A study of Mus musculus with 16 samples.

Results

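The translation initiation factors measured here are mRNAs of genes named for eIF proteins in mouse erythroid progenitors. They were taken as every gene symbol that begins with Eif and a digit, without the eIF2 kinases (Eif2ak). All genes under this rule are called initiation factors here, including those that encode repressors of eIF4E or related proteins. The rule found 51 genes in the RNA-seq table of 15386 genes and the same 51 in the m6A table of 13490 genes. The cells were sorted as CFU-E cells, late erythroid progenitors named for the small colonies of red cells that they form. In the paper, the sorted Kit-low subset of Mettl3-deficient mice formed no colonies and held a raised share of apoptotic cells. Control and Kit-low cells came from bone marrow by a gate on lineage-negative cells with Kit and CD71. The paper used adult male and female C57BL/6 mice, and the sample titles do not give the sex behind a library. RNA-seq compared 3 control libraries with 3 libraries labelled Kit-low and Mettl3 KO, which came from mice with loxP-flanked Mettl3 (fl/fl) and a Cre driven by the erythropoietin receptor gene (EpoR-tdTomato-Cre). This Cre also recombines in erythroblastic island macrophages and in part of the hematopoietic stem cells. The m6A libraries were 2 immunoprecipitates (IP) and 2 inputs of control CFU-E cells. The control label does not say whether Cre was carried, and the labels do not say whether libraries came from separate animals, so p-values measure the spread between these libraries.

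Initiation is the step at which the small ribosomal subunit is brought to an mRNA and finds the start codon. eIF4F, made of the cap-binding protein eIF4E, the helicase eIF4A and the scaffold eIF4G, opens the 5' end of the mRNA, eIF3 bridges it to the small subunit, and eIF2 carries the initiator tRNA. eIF2B recharges eIF2 with GTP, eIF5 and eIF5B complete subunit joining, and eIF4E-binding proteins (4E-BPs) hold eIF4E away from eIF4G. Erythroid cells depend on this control because globin synthesis is matched to heme supply by the eIF2 kinase HRI. METTL3 is the catalytic subunit of the enzyme that writes N6-methyladenosine (m6A) on mRNA.

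RNA-seq libraries held 17429262 to 21329242 estimated counts and m6A libraries 19421059 to 37142742. Mettl3, the targeted gene, read 115, 123 and 130 CPM (counts scaled to a common library size, here with TMM factors) in control and 117, 127 and 108 CPM in Mettl3 KO libraries, a log2 fold change of -0.07 ± 0.10 (SE, n = 3 per group, edgeR quasi-likelihood adjusted p = 0.634). The groups overlapped at the level of the whole gene, so the knockout named in the label is not seen in these counts. Counts per gene do not show whether the deleted part was read. For erythroid cells of these mice, the paper reports loss of Mettl3 mRNA by qRT-PCR, loss of the protein and a lower global m6A level. The Mettl3 KO libraries are called the Kit-lo libraries from here on, since Kit itself was 544 to 629 CPM in control and 44.0 to 68.5 CPM in Kit-lo libraries. Kit level and genotype differ together and cannot be told apart. The summed CPM of 10 erythroid markers was 2546 to 2671 in control and 4558 to 5533 in Kit-lo libraries, with Slc4a1, Hbb-bs, Hba-a1 and Alas2 among the 7 that rose. The 5 early progenitor markers in the table summed to 582 to 664 CPM in control and 47.2 to 72.7 CPM in Kit-lo libraries. Kit, the marker used in the sort, made up most of both sums. Among the others Gata2, a transcription factor of early progenitors, read 36.3, 31.6 and 36.4 CPM against 1.92, 2.82 and 2.09 CPM. Its log2 fold change was -3.93 ± 0.20 (edgeR adjusted p = 1.16e-06). Meis1 was not called at -0.42 (edgeR adjusted p = 0.674), and Cd34 and Flt3 had too few counts to be tested. Summed macrophage markers were 8.81 to 13.3 and 8.06 to 9.34 CPM, granulocyte markers 25.8 to 39.2 and 16.1 to 24.8, megakaryocyte markers 4.31 to 6.63 and 6.73 to 16.0, lymphocyte markers 3.03 to 3.59 and 2.23 to 3.29, and mast cell and basophil markers 1.37 to 5.10 and 0 to 2.92. Single markers within these lists moved both ways. Log2 fold changes ran from -1.91 to 0.31 (macrophage), -1.97 to 3.31 (granulocyte) and -2.31 to 1.62 (megakaryocyte). The part of all these marker shifts in the results below was not tested. In bulk libraries, fewer cells of a type and less RNA per cell cannot be told apart.

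Most initiation factor mRNAs that changed were lower in Kit-lo libraries. Of 50 members that passed the filter on low counts, 23 were lower and 3 were higher at an adjusted p under 0.05, against 16.9% and 17.6% of all 11979 genes tested. At a fold change of at least 1.5 as well, 7 were lower and 1 was higher, against 9.83% and 12.1% of all genes. Eif4e3, counted in both the 23 and the 7, passed the filter through its control libraries alone. The median log2 fold change of the 50 was -0.22, beside 0.01 over all genes, and 36 of the 50 values were negative. All members together took 1.71 to 1.84% of the counts in control libraries and 1.47 to 1.58% in Kit-lo libraries, ranges that do not overlap. Eif2s3y, which is on the Y chromosome, was the member left out by the filter, with 0 to 9 counts per library. Its paralog Eif2s3x on the X chromosome held 11841 to 15286 counts, and the cause of this difference was not tested. Without control replicate 3 the 23 became 16, and without control replicate 2 they became 25.

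**Figure D1:**
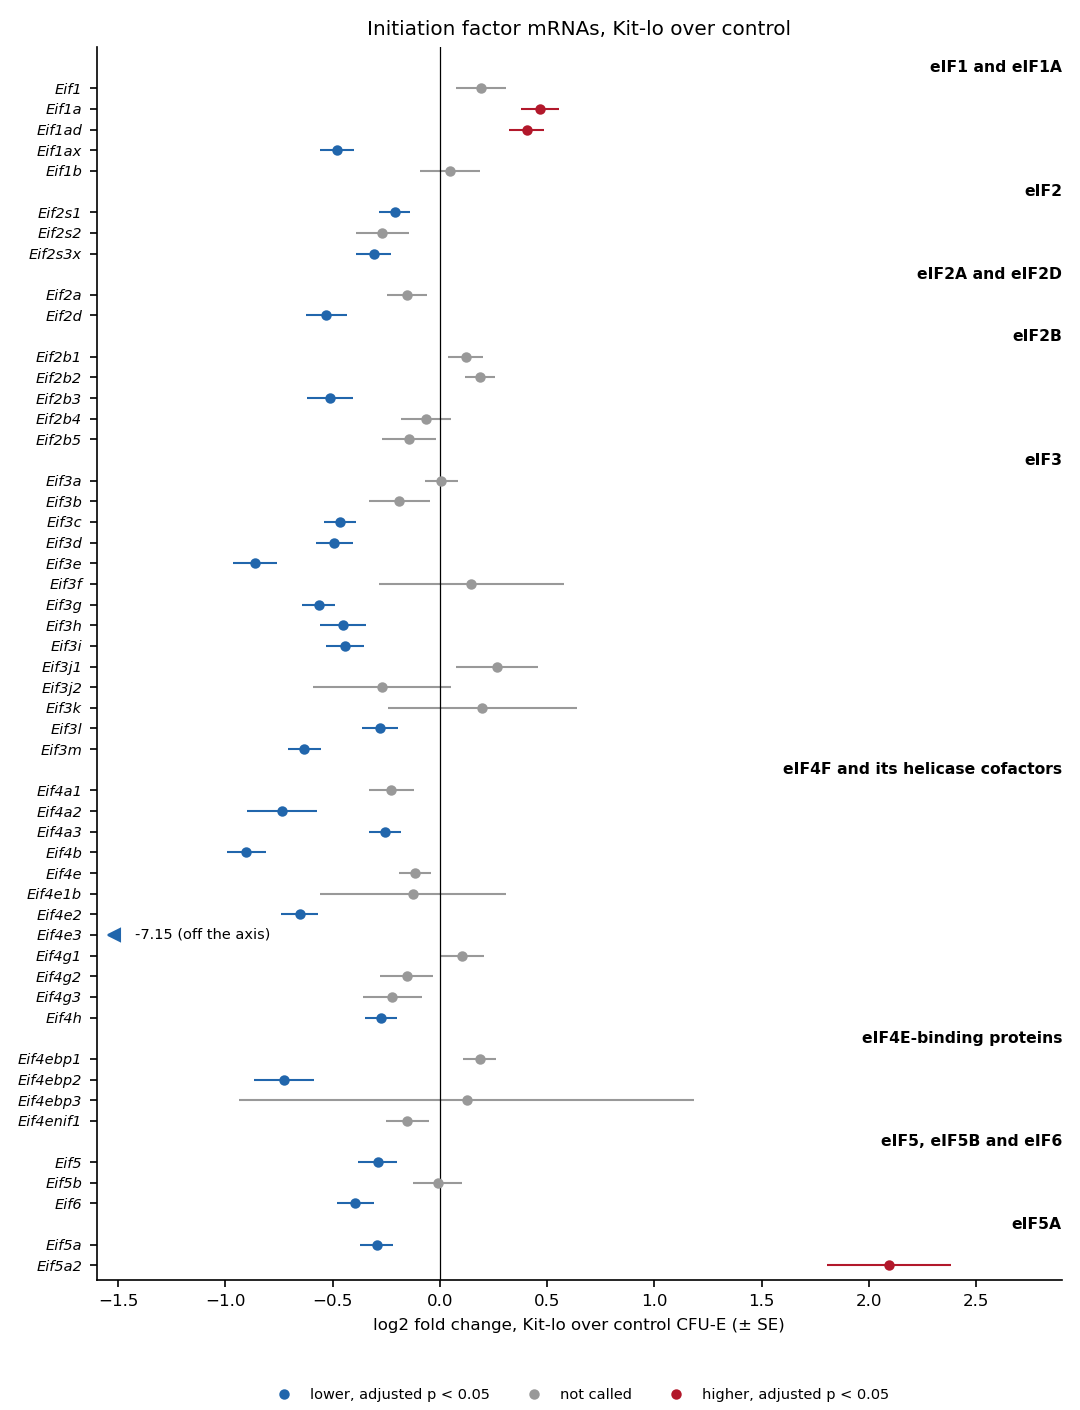
Log2 fold change of Kit-lo over control CFU-E libraries (x axis, points) with SE (bars) for the 50 initiation factors tested, grouped by complex. Blue points are the 23 lower, red the 3 higher and grey those not called, and Eif4e3 at -7.15 lies off the axis at the arrow.

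eIF3, the large scaffold that holds the small ribosomal subunit, was the complex with the most members and the most called. By share, eIF2 and the list of eIF5, eIF5B and eIF6 stood higher, with 2 of 3 tested genes lower in each. Over all genes tested, 16.9% were lower. Of 14 eIF3 genes, 8 fell (Eif3c, Eif3d, Eif3e, Eif3g, Eif3h, Eif3i, Eif3l and Eif3m) and the other 6 did not pass the test, with a median log2 fold change of -0.36. Eif3e read 589, 633 and 721 CPM in control and 317, 362 and 391 CPM in Kit-lo libraries. The highest Kit-lo library thus lay well below the lowest control library, and the log2 fold change was -0.86 ± 0.10 (SE, n = 3 per group, edgeR adjusted p = 0.000162). Eif3m, a peripheral subunit, read 443, 457 and 465 CPM in control and 283, 280 and 317 CPM in Kit-lo libraries. Its groups did not overlap either, with a log2 fold change of -0.63 ± 0.08 (edgeR adjusted p = 0.000191). Eif3m lost its place above 1.5-fold without Kit-lo replicate 2, at -0.58, and also when libraries were scaled by their totals alone. Eif3g, an RNA-binding subunit, was just under the limit, at 704 to 760 CPM against 459 to 514 CPM and a log2 fold change of -0.57 ± 0.08. Eif3l was the smallest of the 8 changes at -0.28 ± 0.08, and its adjusted p ranged up to 0.109 when control replicate 1 or 3 or Kit-lo replicate 1 or 2 was left out.

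The subunits of eIF3 did not move by one amount. Eif3a, the largest core subunit, read 506, 461 and 539 CPM in control and 491, 510 and 511 CPM in Kit-lo libraries, a log2 fold change of 0.01 ± 0.08. Its partner in the core Eif3c fell by 0.47 ± 0.08 on the log2 scale, from 310 to 331 CPM to 220 to 242 CPM. Eif3b, the third core subunit, read -0.19 ± 0.14 and was not called. Eif3f was unsteady, with 23.8, 36.0 and 19.2 CPM in control and 10.1, 32.7 and 44.6 CPM in Kit-lo libraries, and the low and high values of its Kit-lo libraries bracket all 3 controls. Eif3j1 had the highest log2 fold change of the complex, 0.27 ± 0.19, and was not called. Eif3j1 and its near copy Eif3j2 share most of their sequence, since 94.9% of the 31-base words of Eif3j2 transcripts also occur in other genes, so reads cannot be split with certainty between them. Sharing with other genes also touches Eif3m at 57.9% and Eif3e at 42.0% of words. With genes annotated as protein-coding, Eif3m shared 4.15% of words and Eif3e none. An antisense transcript covers 43.3% of the exonic bases of Eif3d. Per length, eIF3 subunits in control libraries ranged from 5.37 ± 1.40 TPM (counts scaled for transcript length and library size, SD, n = 3) for Eif3k to 1390 ± 68.9 TPM for Eif3g.

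The group of eIF4F genes, their paralogs and helicase cofactors (eIF4F where medians are given) held 4 of the 7 members lower by at least 1.5-fold. It includes paralogs outside the eIF4F complex, and Eif4e, Eif4a1, Eif4g1 and Eif4g3 were not called. Of 12 genes, 6 fell (Eif4a2, Eif4a3, Eif4b, Eif4e2, Eif4e3 and Eif4h), beside 16.9% of all genes tested. Among the 12 log2 fold changes, 11 were negative, with a median of -0.24. Eif4b, the cofactor that stimulates the eIF4A helicase (chromosome 15, 102073773 to 102097173 in GRCm38), read 729, 756 and 785 CPM in control and 370, 389 and 456 CPM in Kit-lo libraries. All Kit-lo values were below all control values, with a log2 fold change of -0.90 ± 0.09 (SE, n = 3 per group, edgeR adjusted p = 5.55e-05). Eif4h, the smaller cofactor related to Eif4b, was 1066 to 1171 CPM in control and 879 to 991 CPM in Kit-lo libraries, a log2 fold change of -0.27 ± 0.08. Its adjusted p of 0.018 rose to at most 0.084 without control replicate 1 or 3 or Kit-lo replicate 2.

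Paralogs within this group differed in their calls. Eif4a2, a helicase paralog, read 545, 507 and 535 CPM in control and 291, 418 and 244 CPM in Kit-lo libraries. The Kit-lo libraries were spread more widely than the controls but lay below them, with a log2 fold change of -0.74 ± 0.16 (edgeR adjusted p = 0.00603). Eif4a1, the more abundant helicase, read 2996, 2345 and 2669 CPM against 2508, 2279 and 2062 CPM, groups that overlapped, and was not called at -0.23 ± 0.10, though it passed as lower without control replicate 2 (edgeR adjusted p = 0.0419). For Eif4a1, 67.5% of the 31-base words also occur in other genes, none of them annotated as protein-coding, so its reads are shared with copies of the gene. The difference between the 2 changes was not tested. Without Kit-lo replicate 3, Eif4a2 stood at -0.57, under the 1.5-fold limit. Eif4a3, the helicase paralog of the exon junction complex, was called at -0.26 ± 0.07, with an adjusted p of up to 0.088 without control replicate 1 or 3 or Kit-lo replicate 2.

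Among the cap-binding proteins, Eif4e itself was not called at -0.12 ± 0.08. Eif4e2, which encodes the cap-binding repressor 4EHP, read 149, 152 and 137 CPM in control and 93.9, 94.1 and 90.3 CPM in Kit-lo libraries. Kit-lo values were close to each other and below every control, with a log2 fold change of -0.65 ± 0.09 (edgeR adjusted p = 0.000316). Eif4e3, a cap-binding protein that lacks an aromatic residue of the cap pocket, was scarce throughout, with 38, 80 and 63 counts in control libraries and 1, 0 and 0 counts in Kit-lo libraries. The control total was 191 times the Kit-lo total after scaling for depth, with a 95% counting interval of 33.9 to 7599 that covers counting error only. The edgeR adjusted p was 0.00019. Eif4e3 passed the filter on low counts through its control libraries alone, so lower was the only call open to it. The p-value therefore adds no separate support. A fitted fold change from 1 count depends on the prior count, so it is given in the plots alone, and the medians above are the same wherever below them Eif4e3 is placed. Its level per length in control was 2.80 ± 1.19 TPM. Eif4e1b, an oocyte form, lay at 1.19 to 1.70 CPM in all 6 libraries. The scaffolds Eif4g1, Eif4g2 and Eif4g3 were not called, at 0.10 ± 0.10, -0.16 ± 0.12 and -0.22 ± 0.14.

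Repressors of eIF4E also differed among themselves. Eif4ebp2 read 59.6, 64.6 and 59.8 CPM in control and 42.6, 30.1 and 38.7 CPM in Kit-lo libraries, without overlap, at a log2 fold change of -0.73 ± 0.14 (edgeR adjusted p = 0.00291). Without Kit-lo replicate 2 its value was -0.57, under the 1.5-fold limit. Eif4ebp1, the more abundant 4E-BP in these cells at 366 ± 19.1 TPM in control, read 333, 363 and 341 CPM against 369, 397 and 414 CPM. These groups did not overlap either, but the change of 0.19 ± 0.08 did not pass (edgeR adjusted p = 0.089). It passed as higher when libraries were scaled by their totals alone, at an adjusted p of 0.033. Eif4ebp3 was at or near the floor, with 0 to 1.17 CPM. Eif4enif1, which encodes the eIF4E transporter 4E-T, was not called at -0.15 ± 0.10.

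**Figure D2:**
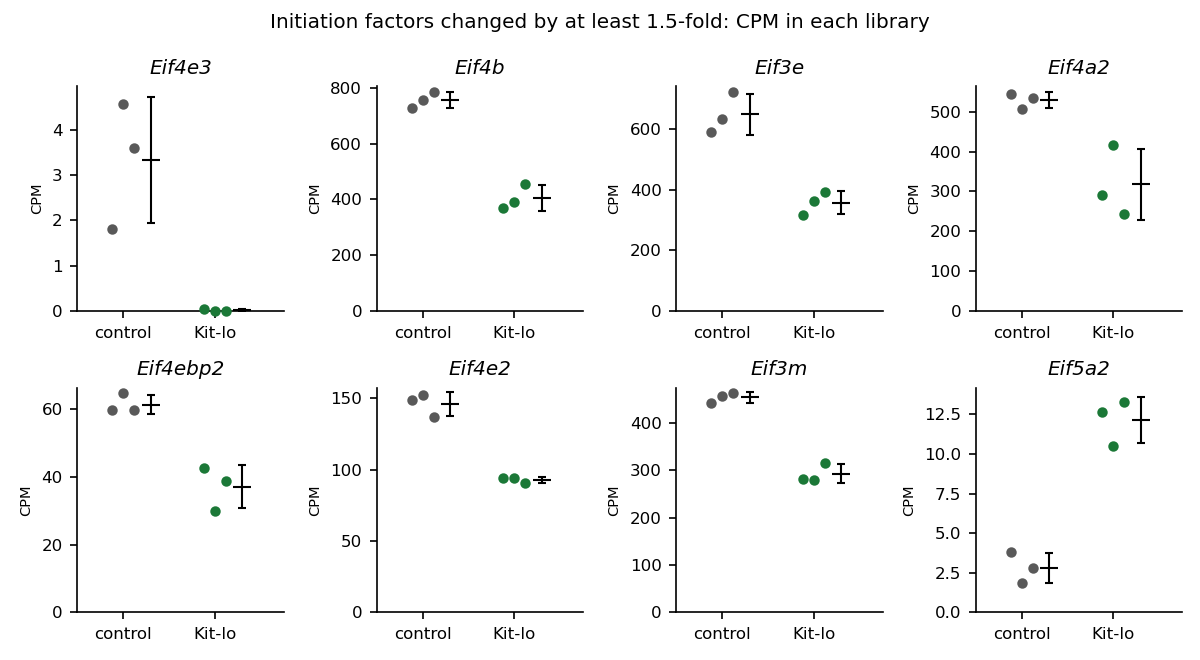
CPM (y axes, linear from 0) in each of the 3 control (grey) and 3 Kit-lo (green) libraries for the 8 initiation factors that changed by at least 1.5-fold, with mean and SD in black. Of these, 7 genes are lower and Eif5a2 is higher in Kit-lo libraries. The genes were picked by the test on these same values, so groups that do not overlap add no further evidence.

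In eIF2, which forms the ternary complex with initiator tRNA and GTP, Eif2s1 (the alpha subunit that the eIF2 kinases phosphorylate) and Eif2s3x (the gamma subunit) were called lower, and Eif2s2 (beta) at -0.27 ± 0.12 was not. Eif2s3x read 732, 748 and 842 CPM against 615, 592 and 667 CPM, at -0.31 ± 0.08. Without control replicate 3 or Kit-lo replicate 2 its adjusted p, 0.015 with all libraries, was at most 0.070. Eif2s1 read 430, 386 and 415 CPM against 354, 355 and 355 CPM, at -0.21 ± 0.07, and its adjusted p of 0.047 rose to as much as 0.167 when control replicate 1 or 3 or any Kit-lo replicate was left out. The Eif2s1 call was also lost with library totals alone and with DESeq2's size factors in edgeR.

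In eIF2B, the exchange factor for eIF2, Eif2b3 (the gamma subunit) was the member called, at 168, 144 and 149 CPM in control and 119, 95.2 and 109 CPM in Kit-lo libraries. Its log2 fold change was -0.51 ± 0.11 (edgeR adjusted p = 0.00446), with no overlap of groups. Eif2b2, the beta subunit, had the highest value of that complex, 0.19 ± 0.07 (edgeR adjusted p = 0.064). Eif2d, which can deliver tRNA without eIF2, read 234, 228 and 234 CPM in control and 147, 153 and 182 CPM in Kit-lo libraries, at -0.53 ± 0.09 (edgeR adjusted p = 0.00181). Eif2a, the other alternative tRNA carrier, was not called at -0.15 ± 0.09.

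The genes named for eIF1 and eIF1A, the factors of start-codon scanning, gave 2 of the 3 members that were higher, one of which (Eif1ad) encodes a related protein. Eif1a and Eif1ax encode nearly identical eIF1A proteins and differed in sign. Eif1a read 214, 201 and 238 CPM in control and 322, 289 and 290 CPM in Kit-lo libraries, a log2 fold change of 0.47 ± 0.09 (edgeR adjusted p = 0.0026). Eif1ax, on the X chromosome, read 367, 363 and 403 CPM against 262, 263 and 288 CPM, a log2 fold change of -0.48 ± 0.08 (edgeR adjusted p = 0.0012). Neither pair of groups overlapped, and the sum of both genes was not tested. Eif1a shared 6.81% and Eif1ax 0.817% of their 31-base words with other genes. Eif1ad, which encodes a protein with an eIF1A-like domain, read 222, 204 and 237 CPM against 285, 303 and 289 CPM, at 0.40 ± 0.08 (edgeR adjusted p = 0.00352). Eif1 and Eif1b, which encode the factor that guards start-codon choice, were not called, though Eif1 passed as higher without control replicate 1 (edgeR adjusted p = 0.0423).

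Among the late-acting factors, Eif5, the GTPase activator of eIF2, and Eif6, which keeps the large subunit apart from the small one, were lower, at -0.29 ± 0.09 and -0.39 ± 0.09. Eif5 lost its call without control replicate 1 or 3 or Kit-lo replicate 1 or 3, with an adjusted p of up to 0.131, and also with library totals alone. Eif5b, which joins the subunits, was at -0.01 ± 0.11.

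eIF5A is the hypusine-bearing factor that helps ribosomes through difficult peptide bonds, and its paralogs moved apart. Eif5a, the abundant form, read 1609, 1425 and 1549 CPM in control and 1324, 1182 and 1227 CPM in Kit-lo libraries, at -0.30 ± 0.08 (edgeR adjusted p = 0.014). That call was lost without control replicate 1 or 3 or Kit-lo replicate 2, with an adjusted p of up to 0.069. Eif5a2 (chromosome 3, 28781276 to 28798846 in GRCm38) read 3.78, 1.89 and 2.81 CPM in control and 12.6, 10.5 and 13.3 CPM in Kit-lo libraries. Every Kit-lo library was above every control, with a log2 fold change of 2.09 ± 0.29 (edgeR adjusted p = 0.000402), the only member higher by at least 1.5-fold. Per length, Eif5a2 was at 1.19 ± 0.40 TPM in control and 5.40 ± 0.53 TPM in Kit-lo libraries, beside 2248 ± 131 and 1941 ± 159 TPM for Eif5a.

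Neighbouring genes of translation were taken from lists of regulators. Of 4 eIF2 kinases, 2 rose, beside 17.6% of all genes tested that were higher. Eif2ak1, which encodes the heme-regulated kinase HRI, read 155, 184 and 177 CPM in control and 255, 260 and 295 CPM in Kit-lo libraries, at 0.65 ± 0.09 (edgeR adjusted p = 0.000579). Eif2ak3, which encodes the endoplasmic reticulum kinase PERK, read 4.80 to 6.01 CPM against 7.61 to 12.3 CPM, at 0.82 ± 0.25 (edgeR adjusted p = 0.0281). The gene of the eIF2 phosphatase subunit Ppp1r15b was also higher, at 0.61 ± 0.07.

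Of 36 other initiation proteins and regulators tested, 13 were lower and 5 higher, with a median log2 fold change of -0.18. Over all genes tested, 16.9% were lower and 17.6% higher, and 9.83% and 12.1% at 1.5-fold as well. Those lower by at least 1.5-fold were Bzw2 at -0.75, Cyfip1 at -0.84, Mlst8 at -0.66, Pabpc1 at -0.64, Paip2b at -0.75 and Pdcd4 at -0.82. Pabpc1 is the poly(A)-binding protein that contacts eIF4G, Pdcd4 is an inhibitor of eIF4A, and Mlst8 is a subunit of mTOR complexes. Higher by at least 1.5-fold were Mif4gd at 0.66, Ppp1r15b and Ythdf1 at 0.59. Of 11 elongation and termination factors, 4 were lower, beside the same 16.9% of all genes. Past 1.5-fold were Eef1a1 at -0.62 ± 0.11 and Eef1b2 at -0.75 ± 0.11. Eef1a1 delivers aminoacyl-tRNA to the ribosome, and it read 15207 to 17616 CPM in control and 9902 to 12838 CPM in Kit-lo libraries.

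Promoters of the members were read from RefSeq (GRCm38.p6), 250 bases before to 50 after the first start listed for each gene. The palindrome CACGTG, the E-box read by MYC and USF factors, was searched on both strands, which for a palindrome are the same letters. Of 51 members, 39 had an entry, and 8 of the 39 (20.5%) held CACGTG, beside 7.2% of 27025 promoters and 10.3% of the 9175 promoters of genes tested in the RNA-seq. Of the 8 members with it, 1 (Eif4h) was lower in Kit-lo libraries, and of 30 tested members without it 16 were. Over all tested genes with a promoter entry, 190 of 942 (20.2%) with CACGTG and 1387 of 8233 (16.8%) without it were lower. The members' median log2 fold changes were 0.07 with and -0.26 without it. Over all tested genes the medians were -0.03 with and 0.01 without CACGTG, and both the shares and the medians stood in the opposite order to the members'. The windows of Eif5a2, the member raised most, and of Eif4h are shown 5' to 3', with CACGTG in capitals.
Eif5a2, chr3:28781123-28781152, plus strand: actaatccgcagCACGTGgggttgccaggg
Eif5a2, chr3:28781148-28781177, plus strand: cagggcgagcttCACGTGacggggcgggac
Eif4h, chr5:134639488-134639517, minus strand: cggccgccgcacCACGTGggccgcagagcg
A match describes letters in these windows and not a bound site.

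In the m6A libraries of control CFU-E cells, 6 initiation factor mRNAs were higher in IP than in input, and 4 were lower. These were 6 and 4 of 48 members tested, against 7.9% and 7.86% of all 11447 genes tested (904 and 900 genes, which became 1451 and 754 with upper-quartile scaling and 934 and 608 with library totals alone). Eif2s3y, Eif4e1b and Eif5a2 did not pass the filter on low counts. The median log2 ratio of IP over input was -0.16 for the members and 0.06 for all genes. The 6 enriched members were Eif4enif1, Eif2a, Eif4g1, Eif3a, Eif2s3x and Eif4b, and the 4 depleted members were Eif2b5, Eif3f, Eif1b and Eif4a1.

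Among the enriched members, Eif4enif1 read 38.4 and 41.3 CPM in input and 91.8 and 74.8 CPM in IP, a log2 ratio of 1.07 ± 0.23 (SE, n = 2 per group, edgeR adjusted p = 0.0118). Eif2a read 33.6 and 33.7 CPM in input and 84.2 and 56.2 CPM in IP, at 1.06 ± 0.26 (edgeR adjusted p = 0.0203). In both genes the IP libraries were above both inputs, and the IP libraries differed from each other more than the inputs did. Eif4g1, the scaffold of eIF4F, read 89.2 and 171 CPM in input and 265 and 277 CPM in IP, at 1.06 ± 0.29 (edgeR adjusted p = 0.0348). Here the inputs were the libraries that differed. Eif3a read 56.9 and 72.5 CPM against 132 and 113 CPM, at 0.92 ± 0.23, and Eif2s3x 25.6 and 23.6 CPM against 52.9 and 38.8 CPM, at 0.90 ± 0.25. Eif4b, at 54.5 and 48.6 CPM in input and 95.8 and 82.4 CPM in IP, had the smallest of the 6 ratios, 0.79 ± 0.22 (edgeR adjusted p = 0.0376).

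Among the depleted members, Eif2b5, the catalytic subunit of eIF2B, read 173 and 87.7 CPM in input and 66.8 and 35.7 CPM in IP, at -1.34 ± 0.36 (edgeR adjusted p = 0.0324). Eif3f read 219 and 190 CPM in input and 105 and 85.2 CPM in IP, at -1.11 ± 0.22 (edgeR adjusted p = 0.00839). Eif1b read 221 and 205 CPM against 84.3 and 119 CPM, at -1.07 ± 0.24, and Eif4a1 3756 and 4301 CPM against 1836 and 2444 CPM, at -0.91 ± 0.26. In all 4 genes both inputs lay above both IP libraries. Enriched and depleted members were picked by the test on these same libraries, so separated groups add no further evidence. Eif4a2, the paralog of Eif4a1, stood on the other side of 0 at 0.74 ± 0.23 and did not pass (edgeR adjusted p = 0.053). It passed as higher under DESeq2, with upper-quartile scaling, with library totals alone and over genes of at least 1 TPM.

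These m6A calls rested on few libraries. Without input replicate 1 no member passed in edgeR (0 higher and 0 lower), while 6 and 4 members had an unadjusted p under 0.05 in the higher and lower directions, and DESeq2 on all 4 libraries gave 7 higher and 7 lower. Without IP replicate 1, 1 member was higher, and without input replicate 2, 3 were higher, with 4 lower in each case.

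**Figure D3:**
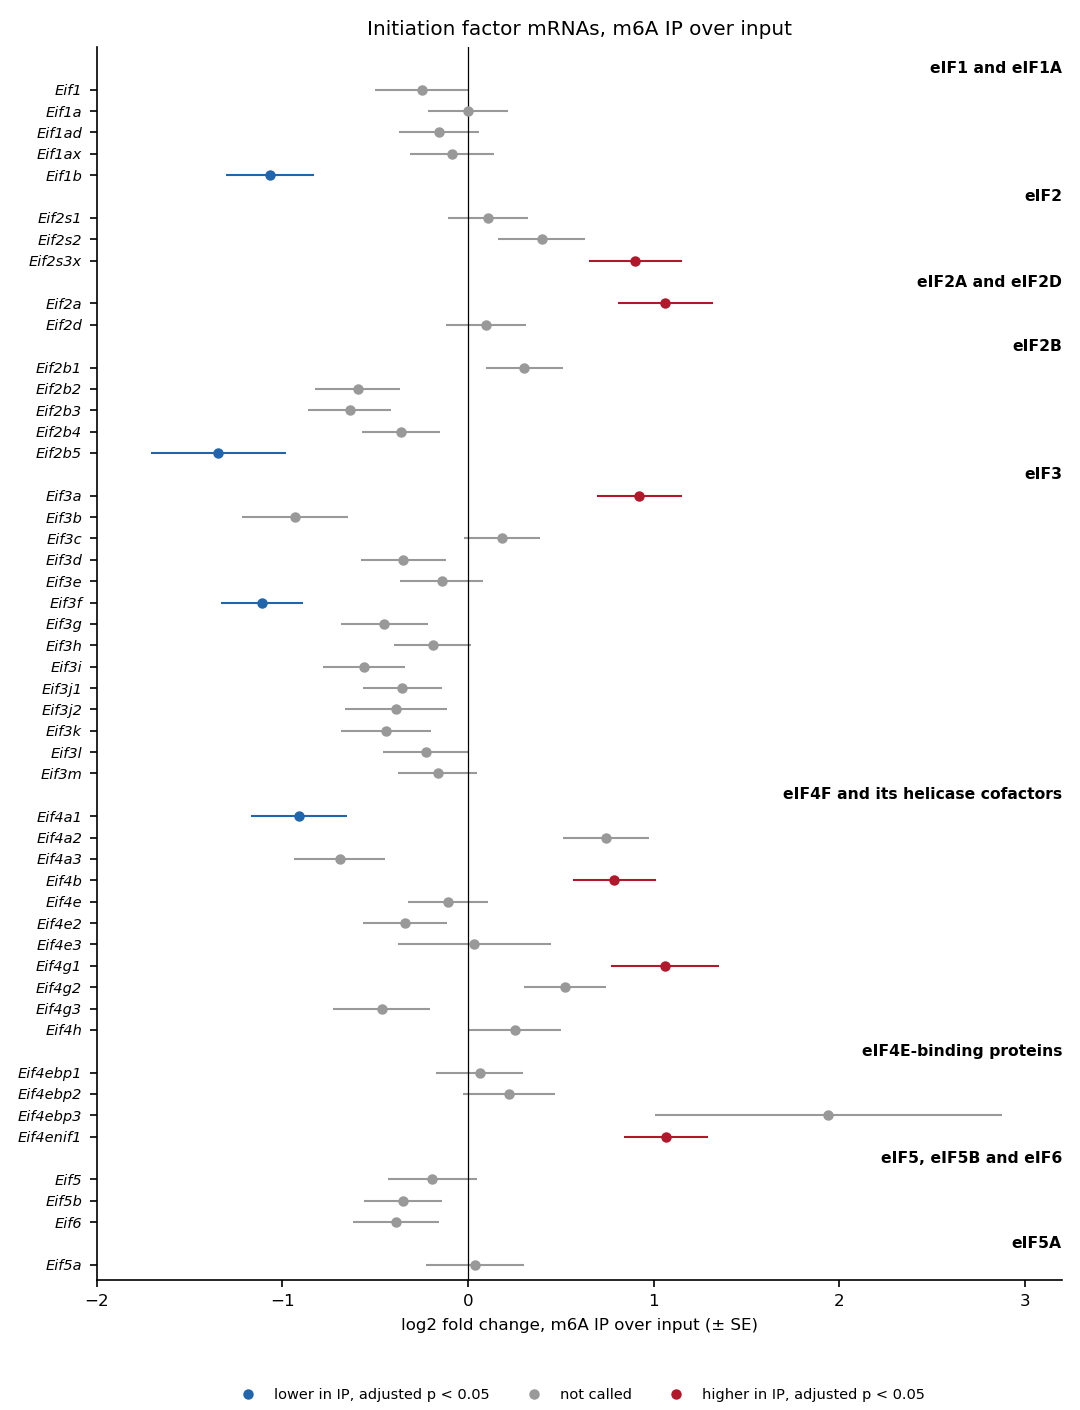
Log2 ratio of m6A IP over input in control CFU-E cells (x axis, points) with SE (bars) for the 48 initiation factors tested, grouped by complex. Red points are the 6 higher in IP, blue the 4 lower and grey those not called, and 12 of the 14 eIF3 members lie below 0.

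By complex, 12 of 14 eIF3 genes had negative ratios, with a median of -0.35, and the subunits called were Eif3a (higher) and Eif3f (lower). Eif3b, at -0.93 and an edgeR adjusted p of 0.051, was not called but passed as lower under DESeq2, under its size factors in edgeR, without the filter on low counts, and without input replicate 2 or IP replicate 1. The 5 eIF2B genes had a median of -0.59, and the 3 eIF2 genes tested a median of 0.40. The SE of single genes, 0.21 to 0.41 outside the scarce Eif4ebp3, is as large as many of these medians. Eif4ebp3, with 0 to 19 counts per library, had the highest ratio at 1.94 ± 0.93 and was not called. Of 36 other initiation proteins and regulators, 6 were higher in IP, led by Paip1, a partner of the poly(A)-binding protein, with 9.79 and 17.4 CPM in input and 206 and 178 CPM in IP (log2 ratio 3.82 ± 0.31). The others were Impact at 1.79, Gigyf2 at 1.02, Pabpc4 at 0.99, Mknk2 at 0.93 and Ppp1r15b at 0.89. Of 10 elongation and termination factors, Eef2 was higher at 0.70 and Gspt1, a release factor, lower at -1.72. Over all genes tested, 7.9% were higher and 7.86% lower in IP.

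The m6A motif is usually written with the core GGACT in DNA letters. Each called member's annotated transcript held it, as did 44 of the 48 members tested (91.7%) and 92.1% of 11441 genes. The GGACT nearest to the stop codon within a single exon is shown for each called member, with GGACT in capitals and 12 bases on each side, from GENCODE vM21 transcripts in GRCm38. The 6 mRNAs higher in IP come before the 4 lower in IP, and each sequence is written 5' to 3' on the strand of the gene.
Eif4enif1, chr11:3244523-3244551, plus strand, 3' UTR: cttgaatatttgGGACTttttcttttggt
Eif2a, chr3:58548507-58548535, plus strand, coding: tgtttgactttgGGACTggtcctcgcaac
Eif4g1, chr16:20692436-20692464, plus strand, 3' UTR: gggtggggcaggGGACTtggagccatgga
Eif3a, chr19:60762249-60762277, minus strand, coding: ggaaagatgaccGGACTgaagagagggat
Eif2s3x, chrX:94190486-94190514, minus strand, 3' UTR: ggctcctcatcaGGACTccctccagttat
Eif4b, chr15:102096282-102096310, plus strand, 3' UTR: gccatggcctgaGGACTcgctgcttttct
Eif2b5, chr16:20508096-20508124, plus strand, coding: ggcagccattgaGGACTtcttcttggaac
Eif3f, chr7:108940676-108940704, plus strand, coding: aaccgggtgattGGACTctcaagtgactt
Eif1b, chr9:120494147-120494175, plus strand, coding: ggcagggactgaGGACTacattcatataa
Eif4a1, chr11:69667533-69667561, minus strand, coding: aagaagacaagaGGACTcttcgagacatt
The nearest motif of Eif4g1 began 19 bases after the first base of the stop codon, and that of Eif4a1 74 bases before it. The position of the nearest motif was read for these 10 genes alone, so no share over other genes stands beside it. The values are counts per gene, so they do not place m6A at any of these letters.

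Transcript length and the kind of library moved with the ratio of IP over input. Median annotated length was 3783 bases for the 6 enriched members, 2528.5 bases for the 38 not called and 2144 bases for the 4 depleted members, and over all genes it was 4225, 3084 and 2343 bases. Across the 48 members Spearman's rho between length and the ratio was 0.31, beside 0.34 across 11441 genes, as a description of genes measured in the same 4 libraries. The number of GGACT motifs gave 0.11 and 0.19. All 6 enriched members had a lower mean CPM in input than in the control RNA-seq libraries, and all 4 depleted members had a higher one. The same held for 86.7% of the 864 enriched genes tested in both tables, while 16.3% of 833 depleted genes were lower in input. Eif4b, for example, read 48.6 to 54.5 CPM in input and 729 to 785 CPM in control RNA-seq, and Eif3f 190 to 219 CPM and 19.2 to 36.0 CPM. Spearman's rho between the ratio of IP over input and the ratio of input over RNA-seq was -0.68 across the 48 members and -0.58 across 10773 genes. The input enters both ratios with opposite sign, the tables were normalized separately, and the part of length or library kind in the calls was not tested.

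**Figure D4:**
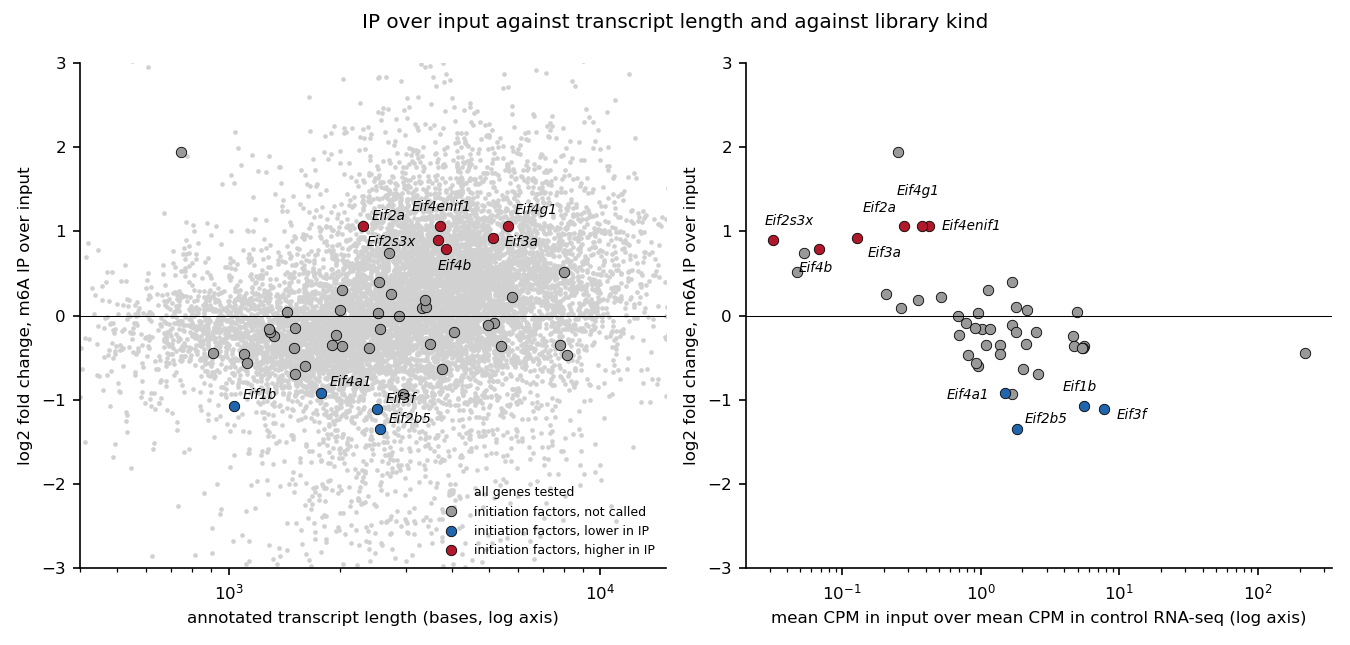
Log2 ratio of IP over input (y axes, drawn from -3 to 3) against annotated transcript length in bases (left, log axis, with all genes tested in pale grey) and against mean CPM in input over mean CPM in control RNA-seq (right, log axis). Points are the 48 initiation factors tested, and the 6 higher in IP (red) lie at the left of the right panel while the 4 lower (blue) lie to the right.

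The m6A and RNA-seq comparisons were then set side by side for the 48 members tested in both. Of the 6 mRNAs higher in IP, 2 were lower in Kit-lo libraries, namely Eif4b (past 1.5-fold) and Eif2s3x. The other 4, Eif4enif1, Eif2a, Eif4g1 and Eif3a, ranged from -0.15 to 0.10 and were not called. Of the 38 not called in IP over input, 21 were lower, 6 of them past 1.5-fold, and 2 were higher. The 4 mRNAs lower in IP ranged from -0.23 to 0.15 in the RNA-seq and were not called there. Over all genes, 22.2% of the 864 enriched, 18.1% of the 9076 not called and 14.2% of the 833 depleted genes were lower in Kit-lo libraries. Spearman's rho between both log2 values was -0.10 across the 48 members and -0.03 across 10768 genes, again a description. m6A was measured in control cells alone, so these values do not show whether m6A on any member differed in the Kit-lo cells.

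**Figure D5:**
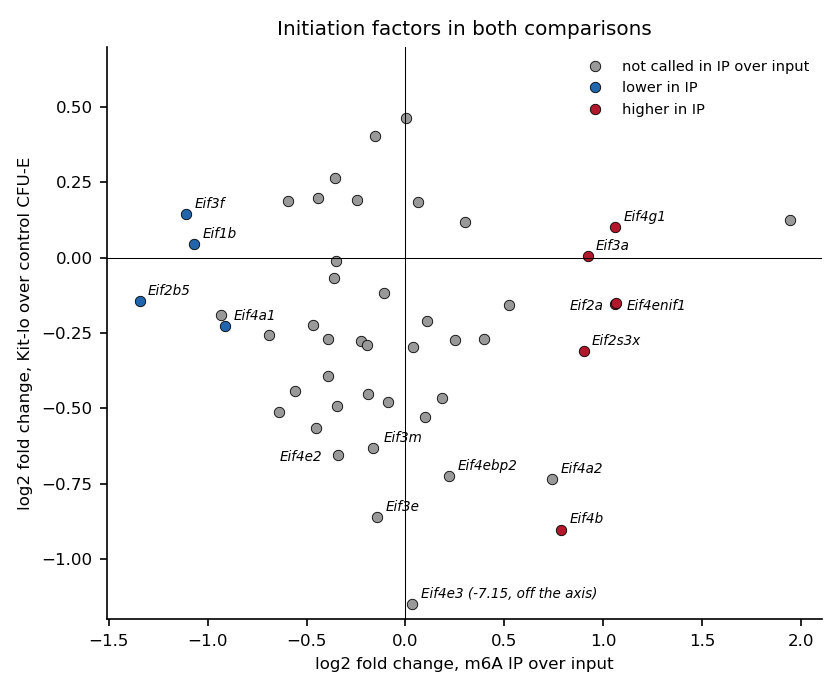
Log2 fold change of Kit-lo over control CFU-E (y axis) against the log2 ratio of m6A IP over input in control cells (x axis) for the 48 initiation factors tested in both. Of the 6 red points (higher in IP), Eif4b and Eif2s3x are lower in Kit-lo libraries, and Eif4e3 at -7.15 is drawn at the lower edge.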

How the data were processed

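The authors trimmed reads with fastp 0.23.4 and deposited Kallisto 0.48.0 estimated counts per gene (expected counts, all whole numbers, mouse mm10, that is GRCm38), for 6 Smart-seq2 RNA-seq libraries (oligo-dT primed) and for 4 libraries of super-low-input m6A sequencing. The processing notes also name GRCm39. Use of strand and of molecular identifiers in counting is not given in the sources used here. The 6 ProE samples are not analysed here. Counts were tested over all genes with edgeR 4.0.16 (R 4.3.3; filterByExpr, TMM, quasi-likelihood F test, Benjamini-Hochberg), Kit-low over control and IP over input, and called at an adjusted p under 0.05. SE is the log2 fold change over the square root of F. CPM used TMM-scaled totals, and TPM used counts over the longest coding transcript of GENCODE vM21. The edgeR and DESeq2 fits were tested on simulated counts with known fold changes, and the other steps were not. Alternatives were DESeq2 1.42.0, other scalings, filters, a replicate block and leaving out libraries. Genes named were those called by 1.5-fold in the RNA-seq or in the m6A libraries, the extremes of each complex, paralogs that differ in call, and list genes past 1.5-fold. Members and lists were chosen with earlier results of these data known. Libraries are sequenced once each, so depth limits genes below about 1 CPM.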

Additional observations from a re-analysis of the deposited data

How the results depend on the processing

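No called member changed direction under any alternative run. The members called lower in the RNA-seq numbered 16 to 25 when single libraries were left out and 21 to 23 under the other alternatives. Library totals alone gave 5 higher members instead of 3, adding Eif2b2 and Eif4ebp1, and a median of -0.17 over all members. Eif2s2 without control replicate 2 and Eif3b without Kit-lo replicate 3 passed as lower. A test against a fold of 1.5, stricter than a fold limit beside a test against 0, called 3 members lower (Eif4b, Eif3e and Eif4e3) in place of 7. Across libraries left out, RNA-seq medians ranged from 0.097 to 0.33 for eIF1 and eIF1A, -0.45 to -0.32 for eIF3 and -0.39 to 0.060 for the 4E-BPs.

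In the m6A libraries, scaling moved the median of all genes from 0.06 to 0.18 (upper quartile) and 0.21 (library totals alone), and member medians are read against it. Library totals alone gave medians of -0.0075 over all members, -0.0054 for eIF1 and eIF1A, -0.20 for eIF3, 0.19 for eIF4F and 0.81 for the 4E-BPs, where TMM gave -0.16, -0.15, -0.35, 0.03 and 0.64. Upper-quartile scaling gave -0.026 over all members, -0.22 for eIF3 and 0.17 for eIF4F. DESeq2 called 7 members lower in place of 4, and its eIF3 median was -0.39, as it was with its size factors in edgeR (-0.39). Without a filter on low counts Eif5a2 entered and the eIF5A median went from 0.04 to -0.36. With genes of at least 1 TPM the medians were -0.27 for eIF3 and 0.30 for the 4E-BPs. Across libraries left out, calls numbered 0 to 6 higher and 0 to 6 lower, and medians ranged from -0.32 to -0.13 for eIF1 and eIF1A, -0.42 to -0.20 for eIF3, -0.052 to 0.26 for eIF4F, 0.22 to 0.75 for the 4E-BPs and -0.54 to 0.12 for eIF5A. The cause of these shifts was not tested, other than genes entering or leaving with a filter.

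Libraries of different groups share numbers that no source says mark a pair. Deviations of same-numbered libraries correlated at 0.03, -0.02 and -0.07 in the RNA-seq and at 0.21 in the 2 m6A pairs. With the number as a replicate block, 21 members were lower in the RNA-seq, without Eif2s1 and Eif5, and 3 higher, and in the m6A libraries 11 were lower in place of 4 and 8 higher in place of 6. With 2 m6A libraries per group, SE of most members limited calls to ratios far from 0, and low counts limited Eif4e3, Eif4ebp3 and Eif2s3y.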

Other observations

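Several initiation factors were counted at very different levels in the control RNA-seq and the m6A input libraries, both from control CFU-E cells. Among the 48 members tested in both tables, 9 had a mean CPM at least 4 times as high in input and 6 were at most 0.25 times as high. Over 10773 genes these shares were 10.2% and 26.8%, beside 18.8% and 12.5% of the members. Eif3k, a small eIF3 subunit, read 1.60 to 2.75 CPM in control RNA-seq and 501 to 518 CPM in input. Eif5a read 1425 to 1609 CPM in RNA-seq and 6897 to 8342 CPM in input. Eif2s3x went the other way, with 732 to 842 CPM in RNA-seq and 23.6 to 25.6 CPM in input, as did Eif4g2 with 1283 to 1685 and 67.2 to 71.9 CPM and Eif4a2 with 507 to 545 and 27.1 to 29.4 CPM. The protocols also differed. By the paper's methods, cDNA of the m6A libraries was cut with the transposase Tn5 and amplified with a 3' primer, while the RNA-seq used Smart-seq2. CPM is not scaled for transcript length. The tables were normalized separately and no test was made across them, so the part of protocol and length was not tested.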
